A study of Apis mellifera with 6 samples.

Results

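Accessible chromatin was compared between the central brains of worker and drone honey bees (Apis mellifera), using 4 of the 6 nucleosome-free ATAC-seq libraries of the series, with 2 replicates of each phenotype. The regions described were chosen as follows: the 4 peak lists were merged wherever peaks overlapped by at least 1 bp, which gave 56581 sites. A site called in both worker lists and in neither drone list was termed worker-private, a site called in both drone lists and in neither worker list was termed drone-private, and a site called in all 4 lists was termed shared. The study profiled newly eclosed workers, drones and queens as untreated adults of the 3 honey bee phenotypes. The bees shared a mother queen, emerged in an incubator and were dissected shortly after emergence. Each library was a pool of dissected brains, with the optic lobes removed from both workers and drones and the hypopharyngeal (food) glands removed from workers, so replicates differ as pools of brains do. Peak names in the worker and queen lists carry 1 common run label that those of the drone lists lack. No other label names a batch, and a difference between runs cannot be told apart here from a difference between phenotypes.

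Workers are diploid females that develop from fertilised eggs, whereas drones are haploid males that develop from unfertilised eggs. In ATAC-seq the Tn5 transposase inserts adapters into DNA that nucleosomes leave exposed, so short fragments pile up over nucleosome-free regions (NFRs), which are typically promoters, enhancers and other sites bound by transcription factors. In bulk tissue, a stronger peak may reflect more cells in which the site is open or more open DNA per cell, and these cannot be told apart. The strength of a peak is given in the deposited lists as a fold enrichment, the pileup of fragments at the summit over the local background of the same library. Because depth and background differed between libraries, sites were compared by percentile, the rank of the fold enrichment within its own list (100 is the strongest peak).

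The worker lists held 36529 and 39158 peaks (replicates 1 and 2) and the drone lists 38341 and 31921. Drone replicate 1 lay between the worker replicates and drone replicate 2 below both. Worker lists averaged 37844 ± 1859 peaks and drone lists 35131 ± 4540 peaks (SD over 2 libraries per phenotype; two-sided exact permutation p = 0.667, where 0.333 is the smallest p this design can give). Peaks were slightly narrower in workers, with median widths of 136 and 137 bp, against 145 and 142 bp in drones (exact permutation p = 0.333, the smallest possible, n = 2 each). The genome-wide background was 1.06 and 1.04 fragments in worker lists and 1.42 and 1.08 in drone lists, and the weakest summits called held 6 or 7 fragments. Drone replicate 1 thus had the highest background of the 4, and drone replicate 2 the shortest list.

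Of the 56581 sites, 20279 were shared, or 35.8%. Worker-private sites numbered 4519 (7.99% of all sites) and drone-private sites 3125 (5.52%). A further 4155 and 5726 sites were called in worker replicate 1 or worker replicate 2 alone, and 5535 and 2480 in drone replicate 1 or drone replicate 2 alone. For each phenotype, the sites called in a lone library together outnumbered its private sites. The surplus of worker-private sites moved with list length. When each list was reduced to its 31921 strongest peaks, 3551 sites were worker-private and 3342 drone-private, a ratio of 1.07 over the 16 chromosomes, against 1.46 in the lists as deposited. Leaving out drone replicate 2 turned the order, with 5524 worker-private and 8751 drone-private sites. Without worker replicate 1, worker replicate 2 or drone replicate 1, the worker-private count was 10377, 8865 or 7495, and without worker replicate 2 or drone replicate 1 the drone-private count was 5118 or 5752, since fewer lists then have to agree.

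Private sites were mostly weak peaks. The median worker-private site stood at percentile 33.6 in worker replicate 1 and 37.6 in worker replicate 2, with fold enrichments of 5.13 and 5.38 and summit pileups of 12 and 13 fragments. The median drone-private site stood at percentile 34.8 in drone replicate 1 and 30.8 in drone replicate 2, at 4.96-fold and 4.89-fold, with 15 and 12 fragments. Shared sites had medians of 69.3 and 71.6 in the worker lists and 71.1 and 65.8 in the drone lists, and were also wider, with a median of 236 bp against 154 bp for worker-private and 156 bp for drone-private sites. Because calling in several lists itself favours strong peaks, these ranks are a description of the classes and not a test. A strong minority existed in both directions: 107 worker-private sites (2.37%) and 64 drone-private sites (2.05%) stood at or above percentile 75 in both of their own lists, and 24 (0.531%) and 28 (0.896%) at or above percentile 90. Gene bodies contained 79.4% of worker-private, 81.7% of drone-private and 82.2% of shared sites. The other phenotype had a call within 500 bp of 871 worker-private sites (19.3%) and 725 drone-private sites (23.2%) and most private sites had none so near.

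**Figure D1:**
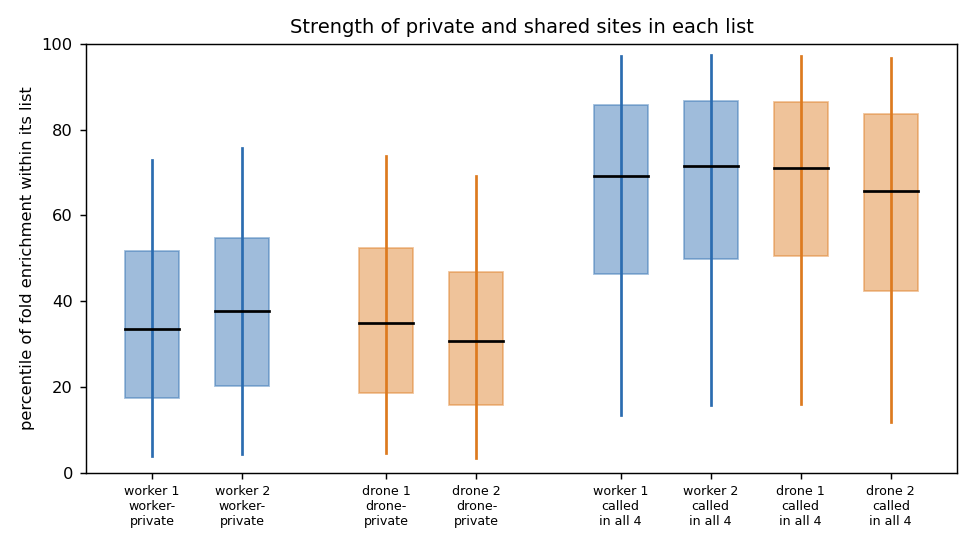
Percentile of fold enrichment within each list (vertical axis, 0 to 100) for worker-private, drone-private and shared sites, in the libraries in which each class was called. Black lines are medians, boxes span the middle 50% of sites and vertical lines the middle 90%. Private medians lie between 30.8 and 37.6 and shared medians between 65.8 and 71.6.

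Among the worker-private sites with the best mean percentile, the strongest was a 69 bp site on LG8 (chr8:10556109-10556177, Amel_HAv3.1) inside LOC100577283, with fold enrichments of 36.9 and 38.3 and 90 and 87 fragments at the summit in the worker replicates. No drone or queen list had a call there. The second, on LG12 (chr12:11512429-11512531), lay 5994 bp from LOC408387 at 26.2-fold and 28.8-fold in workers and was also called in both queen lists, at percentiles 99.8 and 99.5. The remaining 4 had between 16.9-fold and 24.4-fold enrichment. They lay inside LOC408618 on LG1, inside LOC100578744 on LG10, at the low-coordinate end of LG1, 6104 bp from LOC551580, and inside LOC413503 on LG3. Of the 6 sites, 4 were called in at least 1 queen list, and the sites in LOC100577283 and LOC413503 were called in workers alone.

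The strongest drone-private sites had higher fold enrichments than these. The highest, a 318 bp site on LG12 (chr12:1614269-1614586) at 530 bp from the long non-coding RNA gene LOC107965377, reached 84.5-fold and 87.3-fold with 556 and 552 fragments in the drone replicates, against no call in either worker list. At a site inside the long non-coding RNA gene LOC107965194 on LG11 (chr11:13777084-13777262), the drone values were 83.4-fold and 84.3-fold. A 93 bp site on LG3 (chr3:2042546-2042638) inside the non-coding genes LOC100577971 and LOC107964011 had 78.5-fold and 81.6-fold enrichment in drones. These 3 sites were at or above percentile 99.967 of both drone lists, and the strongest peaks of the whole lists reached 112.02-fold and 111.1-fold in workers and 105.7-fold and 106.6-fold in drones.

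The next drone-private sites lay inside the protein-coding genes LOC410140 on LG7 (chr7:3446268-3446454; 77.6-fold and 74.8-fold in drones) and LOC411155 on LG6 (chr6:12371608-12371755; 69.5-fold and 70.8-fold). The sixth lay on LG1 (chr1:26023973-26024147) inside LOC410756 and the non-coding LOC107965445, at 53.9-fold and 53.2-fold. All 6 were drawn from the drone lists as the most strongly enriched, and none was called in either queen list. Worker lists had a call within 500 bp of the site near LOC107965377 and of none of the other 5. The lists hold no reads, and whether these fragments mark open chromatin or differences in copy number or sequence from the assembly was not tested.

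The queen lists, which took no part in choosing the sites, were then read at the private sites. Worker-private sites were called in 42.2% of cases in queen replicate 1 and 37.3% in queen replicate 2, whereas drone-private sites were called in 16.3% and 12.3%. Both queen lists called 1185 worker-private sites (26.2%) and 184 drone-private sites (5.89%), and neither called 2109 (46.7%) and 2415 (77.3%). Both queen libraries thus had calls at a larger share of worker-private than of drone-private sites. With worker and drone lists of equal length the shares were 48.2% and 44.0% for worker-private sites and 22.9% and 18.6% for drone-private sites, and with the queen lists reduced as well they were 44.2% and 44.0% against 18.7% and 18.6%. For comparison, 89.1% and 86.3% of shared sites were called in the queen lists. Because queens and workers share both sex and run label, these cannot be told apart in this difference. With 2 queen libraries no test over samples was made.

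**Figure D2:**
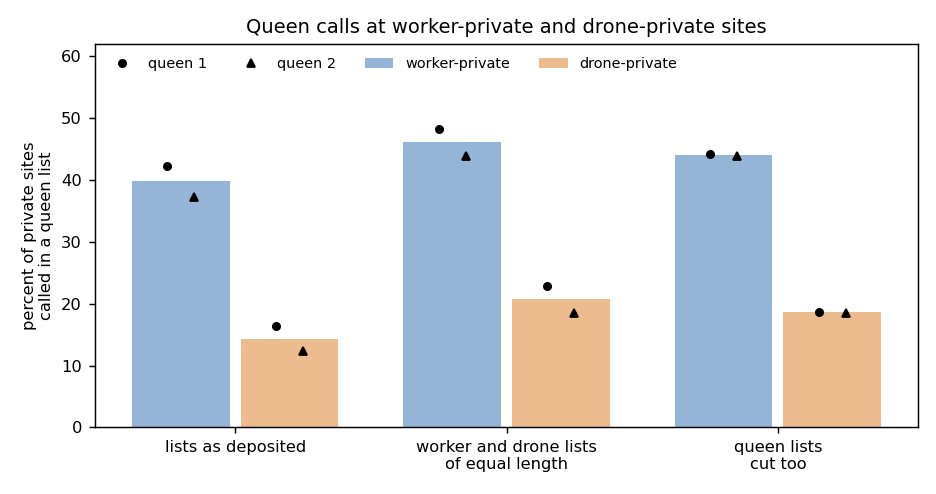
Percent of worker-private and drone-private sites called in a queen list (vertical axis, percent), for the lists as deposited, for worker and drone lists of equal length, and with the queen lists reduced too. Bars are means of the 2 queen libraries and symbols the single libraries. In each setting both queen libraries lie higher for worker-private sites, with 42.2% and 37.3% against 16.3% and 12.3% in the lists as deposited.

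At the 20279 shared sites, limma on the normal score of the within-list rank found no site with an adjusted p under 0.05 in either direction (Benjamini-Hochberg; 0% of sites called). An unadjusted p under 0.05 was found at 3283 sites (16.2%), and the lowest adjusted p was 0.162, common to 281 sites. The count depended on the fit: limma with a variance trend called 69 sites higher in workers (0.34%) and 34 higher in drones (0.168%), and limma on quantile-normalised log2 fold enrichment called 166 (0.819%) and 155 (0.764%). Of the sites called by these fits, 86 were common, which is 83.5% of the calls under the variance trend and 26.8% of those on quantile-normalised values.

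Replicates of a phenotype ranked the shared sites more alike than libraries of different phenotypes did. The median gap in percentile was 7.91 within workers and 7.76 within drones, and ranged from 9.71 to 10.97 over the 4 worker-drone pairs. Gaps over 25 percentile points were found at 13.9% of shared sites within workers and within drones, and at 19.9% to 22.9% between them. As a description across sites, Pearson's r of the normal scores was 0.828 within workers, 0.842 within drones and 0.717 to 0.738 between phenotypes.

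Both worker percentiles lay above both drone percentiles at 5432 shared sites (26.8%), and both lay below at 4523 (22.3%). The median difference was 17.1 percentile points at sites higher in workers and 15.99 points at sites higher in drones, and 1644 and 1232 of them differed by more than 25 points. Leaving out a library loosens this criterion: without worker replicate 1, worker replicate 2, drone replicate 1 or drone replicate 2, the sites higher in workers numbered 9055, 8004, 9657 or 8527 and those higher in drones 7652, 8195, 6229 or 8536. In lists of equal length the order turned, with 4252 of 17942 shared sites higher in workers (23.7%) and 4689 higher in drones (26.1%). The shares were similar at all levels of enrichment, from 24.8% to 28.3% higher in workers and from 21.7% to 23.3% higher in drones over 4 equal classes of mean percentile. Sites higher in workers also had non-overlapping summit pileups, scaled to the genome-wide background, in 93.9% of cases, whereas this held for 54.3% of those higher in drones. Scaled pileups were shifted as a whole, however, with a median log2 ratio of 0.20 (worker over drone) over all shared sites. The medians of 0.65 at sites higher in workers and -0.26 at sites higher in drones are to be read against that shift.

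The shared sites with the largest difference in normal score are given next by value. None was called by limma on ranks without a variance trend (limma adjusted p from 0.162 to 0.199). Most were called with the variance trend (limma adjusted p from 1.5e-04 to 0.0857). Most were also called on quantile-normalised log2 fold enrichment (limma adjusted p from 0.0014 to 0.0541). Only the LG13 site remained called in all 4 lists at equal list length or with a −log10 q of at least 5, and 15 of the 16 were lost there because their weaker peaks are no longer listed. The most enriched of those higher in workers was an intergenic site on LG13 (chr13:11276600-11276937), 12490 bp from LOC726240. It stood at percentiles 99.83 and 99.87 in workers, against 64.3 and 64.9 in drones, with 219 and 226 fragments at the summit in workers and 16 and 14 in drones. The peak was also broader in workers (338 and 327 bp) than in drones (98 and 88 bp). Both queen lists ranked it with the workers, at percentiles 99.85 and 99.81. This site had the lowest adjusted p under the variance trend in limma, 1.5e-04.

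A site on LG1 (chr1:13220772-13221004) inside LOC100578389 stood at percentiles 91.2 and 78.0 in workers and at 8.65 and 8.10 in drones, and a site on LG1 (chr1:13049230-13049677) near LOC410719 at 83.5 and 88.4 in workers and 8.65 and 2.29 in drones. Both phenotypes were well apart at these sites, with summits of 18 to 25 fragments in workers and 6 to 8 in drones. The site with the largest score difference, on LG2 (chr2:11822954-11823151) at 134 bp from LOC102653640, was at percentiles 80.0 and 69.5 in workers and 2.04 and 1.48 in drones. Here the summit pileups were similar, with 26 and 19 fragments in workers and 27 and 21 in drones. The local background was 1.87 and 1.52 fragments in workers against 7.78 and 5.72 in drones, so the gap in rank came with a higher background around the summit in drones. Ranked by summit pileup, the difference was -1.97 percentile points, in place of 73.0. The other 4 sites higher in workers lay inside LOC409108 on LG12, LOC100578939 on LG11 and LOC411036 on LG4, and 1193 bp from LOC552694 on LG12.

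Of the shared sites higher in drones, the largest difference was at LG6 (chr6:3771484-3771742), 636 bp from LOC725479. It was among the weakest peaks of the worker lists, at percentiles 1.20 and 0.43 with 10 fragments each, and stood at percentiles 87.2 and 76.9 in drones with 49 and 30 fragments. A site on LG8 (chr8:977874-978222), 492 bp from the non-coding LOC100576699, was at percentiles 2.97 and 3.25 in workers and 82.9 and 74.5 in drones. Queen lists placed this site low, at percentiles 18.9 and 26.2, nearer to workers. In contrast, a site on LG2 (chr2:4006651-4006808) inside LOC724736 stood at percentiles 11.7 and 9.97 in workers and 82.5 and 92.9 in drones, and at 94.0 and 90.2 in queens, nearer to drones.

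At 2 of the sites higher in drones the worker replicates themselves were far apart. The site on LG15 (chr15:217332-217577) stood at percentiles 69.3 and 8.99 in workers against 99.1 and 98.7 in drones, and that on LG7 (chr7:12902808-12902892) inside LOC408914 at 81.8 and 12.8 in workers against 98.5 and 99.1 in drones. At both, the groups did not overlap but the spread between worker pools exceeded the gap from worker replicate 1 to the drones. The last 3 sites lay near LOC409405 on LG14, inside LOC413385 on LG16 and near LOC727035 on LG5, where workers ranged from percentile 3.97 to 39.0 and drones from 70.7 to 95.8.

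**Figure D3:**
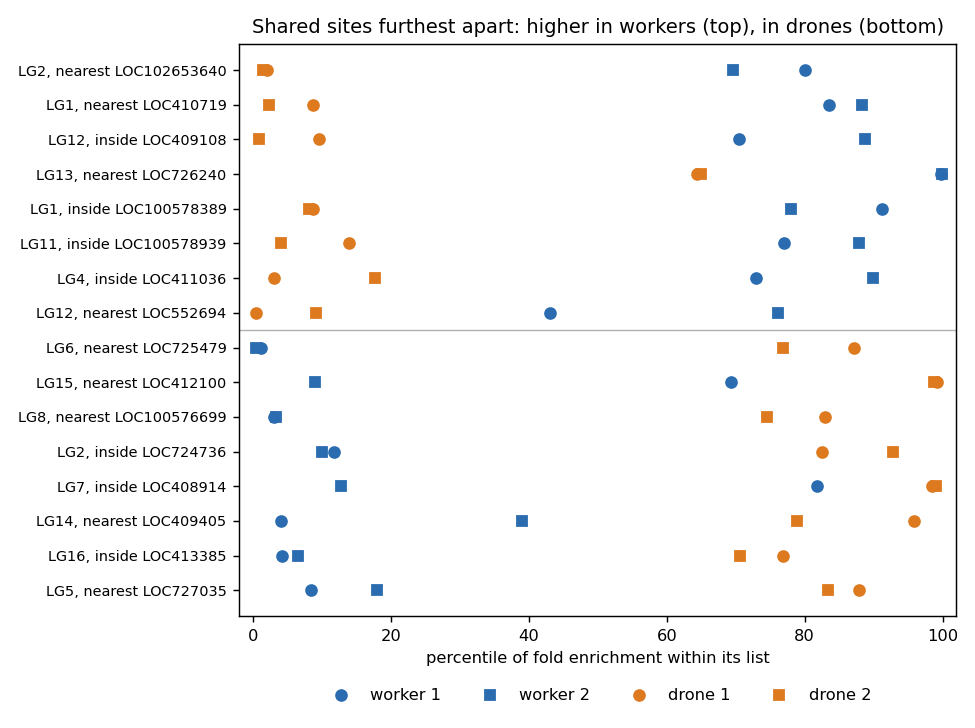
Percentile of fold enrichment within each list (horizontal axis, 0 to 100) at the 16 shared sites furthest apart in normal score, 8 higher in workers (top) and 8 higher in drones (bottom), labelled by chromosome and gene. Each symbol is 1 library. The groups do not overlap at any of the 16 sites, which is how they were chosen, and the worker replicates are far apart at the LG15 and LG7 sites, with 69.3 and 8.99 and with 81.8 and 12.8.

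Queen percentiles were also set beside the shared sites that did not overlap. Of the 5432 sites higher in workers, 4782 were called in both queen lists, and the queen value was nearer to the worker than to the drone mean at 52.1% (queen replicate 1) and 48.2% (queen replicate 2). Of the 4523 sites higher in drones, 3507 were called in both queen lists and the queen value was nearer to workers at 66.0% and 71.2%. Over all shared sites the shares nearer to workers were 54.96% and 54.5%. Queen ranks were thus nearer to workers at most sites that were higher in drones, and about equally near to both at sites higher in workers. At shared sites called in both queen lists, queen medians were lower, at 70.4 and 68.4, against 74.9 in workers and 72.6 in drones. A queen rank that is lower in general falls nearer to the lower phenotype at a site. The part of this offset in the shares was not separated out. These shares were not tested.

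The spread of peaks over the 16 chromosomes was compared next, as the percent of each list's placed peaks, so that a larger share on one chromosome lowers the others. In limma on log2 shares, 2 chromosomes were called higher in workers (12.5%) and 2 higher in drones (12.5%). LG3 held 7.41% and 7.46% of peaks in workers against 7.01% and 7.03% in drones (log2 difference 0.083, SE 0.0084, limma adjusted p = 0.0172). LG5 held 7.02% and 7.06% in workers against 6.69% and 6.79% in drones (limma adjusted p = 0.0275). LG7 fell by 0.10 on the log2 scale, with 6.31% and 6.29% in workers against 6.68% and 6.85% in drones (limma adjusted p = 0.0195), and LG6 held 7.83% in both workers against 8.14% and 8.13% in drones (limma adjusted p = 0.0195). The groups did not overlap on any of these 4 chromosomes, and within a phenotype the replicates were closer than the phenotypes were.

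The calls on LG3 and LG7 held in lists of equal length (limma adjusted p = 0.0169 and 0.0031), whereas those on LG5 (0.289) and LG6 (0.0524) did not. The LG5 difference was then smaller (0.037 against 0.062 on the log2 scale) and that on LG6 slightly larger (-0.062 against -0.055). LG6 also missed the threshold with a −log10 q of at least 5 (0.064). In each of these 2 settings, 2 chromosomes were called higher in drones. They were LG7 and another that was not called in the lists as deposited. None of the calls on LG3, LG5 and LG6 held when any library was left out (limma adjusted p from 0.0597 to 0.101 over worker replicates 1 and 2 and drone replicates 1 and 2). That on LG7 held without drone replicate 1 (0.0403) but not without the other libraries (0.0671 to 0.101). The log2 differences themselves stayed similar, at 0.0774 to 0.0886 on LG3, 0.0519 to 0.0722 on LG5, -0.0559 to -0.0548 on LG6 and -0.12 to -0.0855 on LG7. In these fits the phenotype with a lone library is assumed to vary like the other.

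Private sites followed the same chromosomes. LG3 carried 363 worker-private and 185 drone-private sites, a ratio of 1.96, and LG5 carried 350 and 182, a ratio of 1.92, against 1.46 over all chromosomes. LG6 had 361 worker-private and 289 drone-private sites (ratio 1.25) and LG7 had 238 and 227 (1.05). LG12, which was not called in the lists as deposited, had 219 and 199 (1.10). In lists of equal length the counts were 281 and 186 on LG3, 275 and 206 on LG5, 290 and 314 on LG6, 183 and 235 on LG7 and 159 and 219 on LG12. Drone-private sites then outnumbered worker-private sites on LG6, LG7 and LG12, and also on LG11, with 227 and 246. Per 100 shared sites, worker-private sites ranged from 17.7 on LG7 to 27.3 on LG13, and drone-private sites from 12.7 on LG3 to 20.6 on LG12. These counts come from the same peaks as the shares and have no test of their own.

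**Figure D4:**
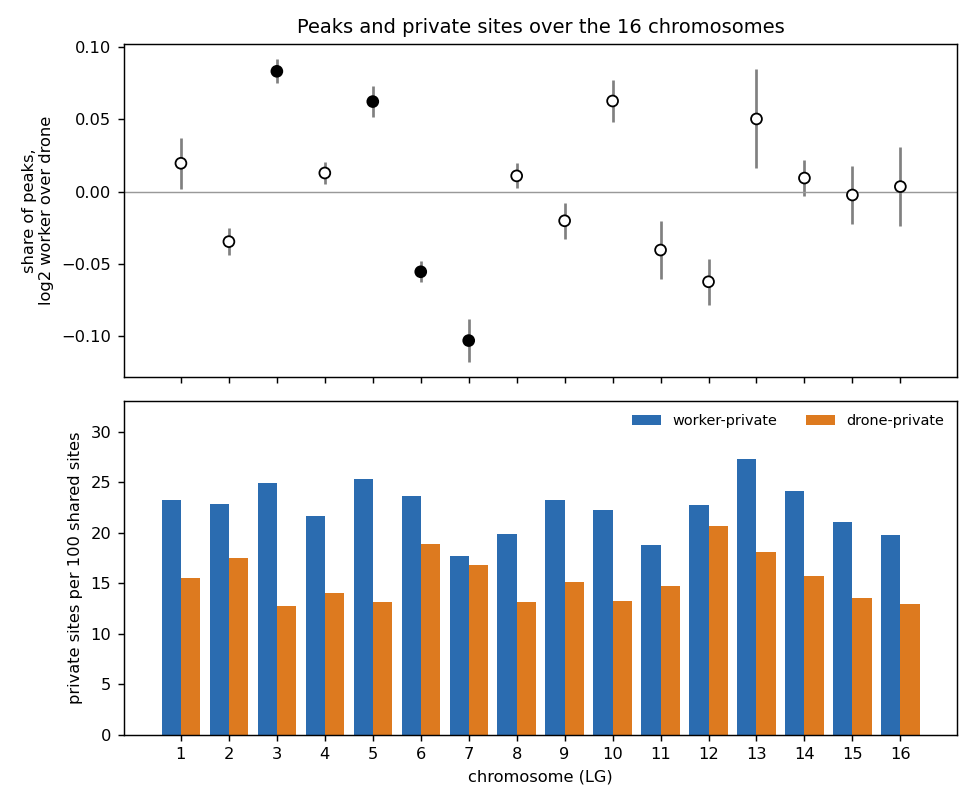
Top, share of placed peaks per chromosome as log2 worker over drone (vertical axis) with its standard error; filled points have a limma adjusted p under 0.05 and lie at LG3 and LG5 (higher in workers) and at LG6 and LG7 (higher in drones). Bottom, worker-private and drone-private sites per 100 shared sites on each chromosome, from 17.7 to 27.3 for workers and from 12.7 to 20.6 for drones.

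Within chromosomes the balance varied from place to place. Of 229 bins of 1 Mb, a division added after the data were seen, 170 held more worker-private and 54 more drone-private sites, and in lists of equal length 130 and 90. The bin at 12 to 13 Mb of LG5 had 51 worker-private and 13 drone-private sites, and that at 12 to 13 Mb of LG3 had 43 and 9. The opposite was found at 3 to 4 Mb of LG11, with 12 worker-private and 28 drone-private sites, and at 4 to 5 Mb and 6 to 7 Mb of LG7, with 2 and 16 and with 1 and 14. Lists of equal length kept these directions, with 46 and 15 in the LG5 bin, 33 and 17 in the LG3 bin, and 8 and 35 in the LG11 bin.

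Sites were then assigned to the 12255 placed RefSeq genes by overlap with the gene body or 2 kb on either side. Worker-private sites fell in 2594 genes (21.2%) and drone-private sites in 1903 (15.5%). Both kinds occurred in 869 genes, which is 33.5% of the genes with worker-private and 45.7% of those with drone-private sites. The gene counts were 2164 and 2028 in lists of equal length.

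The genes with the largest surplus of private sites of one phenotype were long protein-coding genes, listed in the gene table by locus number only. LOC410732 on LG1, over 468203 bp, had 25 worker-private and 6 drone-private sites, and LOC726912 on LG1 had 18 and 2. LOC408865 on LG5 had 17 worker-private and no drone-private sites, with 44 and 43 peaks in workers against 21 and 19 in drones. LOC411079 on LG5 had 13 and 0, with 22 and 30 peaks in workers against 7 and 7 in drones. LOC408865 lies in the LG5 bin with the largest worker surplus. For LOC410353 on LG12 the counts were 16 and 3.

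In the other direction, LOC408372 on LG12 had 2 worker-private and 16 drone-private sites, LOC411617 on LG14 had 2 and 15, and LOC725885 on LG1 had 1 and 11. LOC725924 on LG11, largely within the LG11 bin named above, had 1 worker-private and 14 drone-private sites, with 28 and 35 peaks in workers against 64 and 47 in drones. Its 17 shared sites included 12 higher in drones and 0 higher in workers, beside 22.3% and 26.8% of all shared sites. LOC411155 on LG6, which contains the 69.5-fold drone-private site, had 10 worker-private and 19 drone-private sites. For all 10 genes the order was kept in lists of equal length. These genes were selected for the difference, so no test is given.

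**Figure D5:**
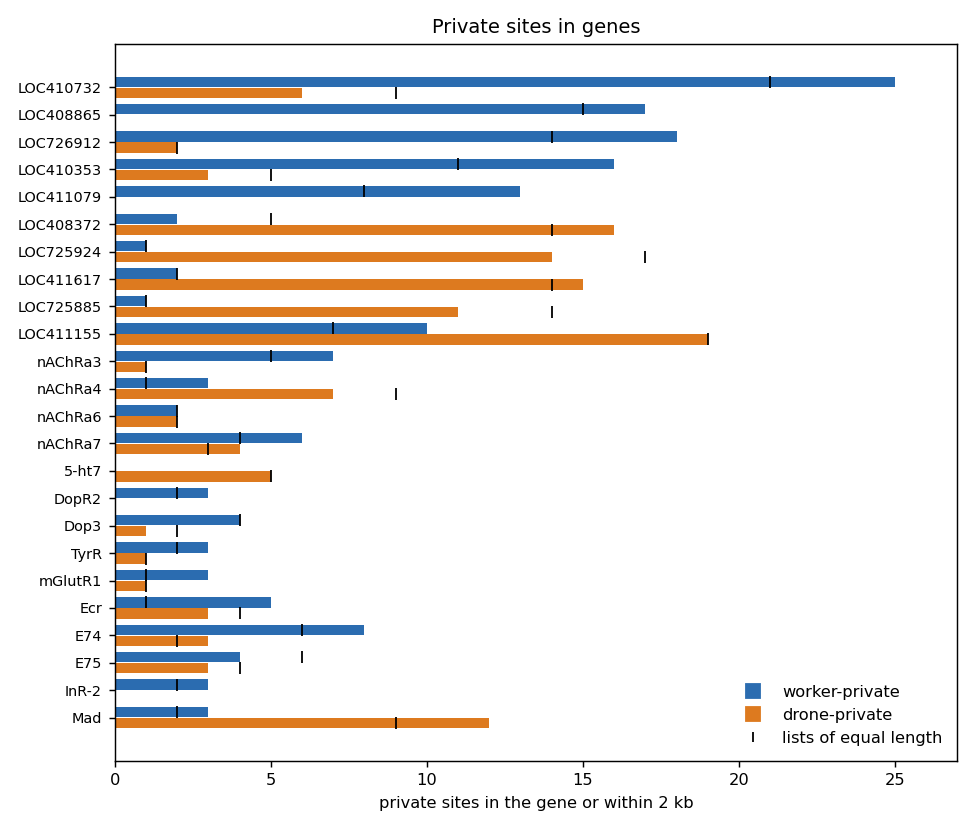
Worker-private and drone-private sites per gene (horizontal axis, number of sites in the gene or within 2 kb) for the 10 genes with the largest surplus and for the listed receptor, hormone and signalling genes with at least 3 private sites. Bars are the lists as deposited and black ticks lists of equal length. LOC410732 has 25 worker-private and 6 drone-private sites, and Mad has 3 and 12.

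Neurotransmitter receptor genes set the sensitivity of neurons to their transmitters, and 23 of 28 listed genes were matched. They held 39 worker-private and 26 drone-private sites, beside a ratio of 1.46 over the 16 chromosomes. In lists of equal length they held 29 and 27, beside a ratio of 1.07. Of their 85 shared sites, 24 (28.2%) were higher in workers and 14 (16.5%) higher in drones, beside 26.8% and 22.3% of all shared sites. In lists of equal length, 18 of their 75 were higher in workers and 18 higher in drones, beside 23.7% and 26.1% of all. All 3 matched dopamine receptor genes had more worker-private than drone-private sites, with 2 and 0 in Dop1, 3 and 0 in DopR2 and 4 and 1 in Dop3. In lists of equal length these counts were 2 and 0, 2 and 0, and 4 and 2. The 1 Mb bins that hold these genes leaned the same way, with 31 and 12, 15 and 7, and 21 and 10. A further listed gene, DopEcR, was not matched. At the site over the lower-coordinate end of Dop1 (chr15:7337512-7337860), percentiles were 82.9 and 88.2 in workers and 64.3 and 46.7 in drones (limma adjusted p = 0.222). The worker-private sites of these 3 genes were weak, with summits of 7 to 14 fragments.

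The serotonin receptor gene 5-ht7 on LG6 had the opposite balance, with 0 worker-private and 5 drone-private sites in both the deposited and the equal-length lists. It had 9 and 5 peaks in workers against 8 and 11 in drones, so the phenotypes overlapped in number. Its strongest drone-private sites (chr6:738742-738832 and chr6:977142-977467) stood at percentiles 85.4 and 83.4 and at 80.6 and 76.2 in the drone replicates. None of the 5 was called in a queen list.

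The nicotinic acetylcholine receptor subunit genes, which encode the main excitatory receptor of the insect brain, differed among themselves. On LG5, nAChRa3 had 7 worker-private and 1 drone-private sites, while on LG7 nAChRa4 had 3 and 7. The 1 Mb bin that holds nAChRa3 had 51 and 13, and that of nAChRa4 had 13 and 28, so each gene leaned like its bin. Within nAChRa3, a shared site (chr5:12145576-12145771) was at percentiles 87.0 and 78.4 in workers against 33.4 and 36.2 in drones, and another (chr5:12151744-12151962) at 33.5 and 7.82 in workers against 76.6 and 65.9 in drones (limma adjusted p = 0.162 and 0.195). Sites within this gene thus ranked in opposite order. Within nAChRa4, the site at chr7:7756560-7756911 was at percentiles 59.9 and 68.5 in workers against 89.6 and 95.7 in drones (limma adjusted p = 0.190). The remaining receptor genes had between 0 and 6 private sites of either kind.

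Of 20 hormone and caste genes, 10 were matched. They held 22 worker-private and 9 drone-private sites, beside a ratio of 1.46 over the 16 chromosomes. In lists of equal length they held 16 and 11, beside a ratio of 1.07. Of their 113 shared sites, 32 (28.3%) were higher in workers and 19 (16.8%) higher in drones, beside 26.8% and 22.3% of all shared sites. In lists of equal length these numbers were 23 and 12 of 89, beside 23.7% and 26.1% of all. E74, an ecdysone-induced transcription factor, had 8 worker-private and 3 drone-private sites among 49 and 58 peaks in workers and 48 and 45 in drones. Its strongest shared site higher in workers (chr3:3376825-3377494) was at percentile 99.2 in both workers and 98.7 and 97.9 in drones, a difference far smaller than those above. Ecr, the ecdysone receptor, had 5 worker-private and 3 drone-private sites, but 1 and 4 in lists of equal length. Usp, its partner, had 2 and 0, but 0 and 1 in lists of equal length. The insulin receptor gene InR-2 had 3 and 0, with 18 and 20 peaks in workers against 13 and 8 in drones. E75, induced by ecdysone, had 4 and 3, whereas Kr-h1, a transcription factor induced by juvenile hormone, had none of either kind.

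In honey bees, sex is set by the alleles of Csd, which directs the splicing of Fem and through it of Dsx, the transcription factor at the end of the cascade. Of 6 sex determination genes, 4 were matched, with 2 worker-private and 2 drone-private sites and 14 shared sites, of which 4 (28.6%) were higher in workers and 1 (7.14%) higher in drones, beside 26.8% and 22.3% of all shared sites. In lists of equal length these numbers were 4 and 5 of 14, beside 23.7% and 26.1% of all. The balance turned there as it did over all shared sites. A shared site in Csd (chr3:11780702-11780839) was at percentiles 93.9 and 93.7 in workers against 78.5 and 85.3 in drones (limma adjusted p = 0.303), and Csd and Fem each had 1 worker-private site. Dsx had 0 worker-private and 2 drone-private sites, at chr5:3530380-3530470 with percentiles 39.0 and 36.4 and at chr5:3573035-3573203 with 63.6 and 25.1 in the drone replicates. The shared site over the lower-coordinate end of Dsx (chr5:3529209-3529580) was among the strongest in all 4 lists, at percentiles 99.6 and 99.4 in workers and 98.7 and 98.6 in drones. The matched gene tra2, a cofactor of this splicing, had no private site.

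Of the 13 transcription factors taken from the network of the study, which was built on these samples and so is not independent of them, 3 were matched (Mad, Ecr and Usp). They held 10 worker-private and 15 drone-private sites, or 3 and 14 in lists of equal length. Mad, in Drosophila the transcription factor activated by Dpp, a BMP-type signal, had 3 worker-private and 12 drone-private sites over 409447 bp of LG15. Lists of equal length gave 2 and 9. The 1 Mb bin of LG15 that holds the private sites of Mad had 15 and 24 in the lists as deposited, those of Mad included. Mad had 60 and 70 peaks in workers against 96 and 65 in drones, so the replicates overlapped in number, and its drone-private sites were of low to middle rank, none above percentile 63.5 in either drone list. Of its 39 shared sites, 8 were higher in workers and 8 higher in drones, beside 26.8% and 22.3% of all shared sites. The shared site with the widest drone surplus in Mad (chr15:1089936-1090297) was at percentiles 46.3 and 59.3 in workers against 97.0 and 88.6 in drones, and that with the widest worker surplus (chr15:1022140-1022495) at 88.0 and 72.9 in workers against 14.98 and 32.4 in drones (limma adjusted p = 0.171 and 0.163).

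Among clock genes, 2 of 8 were matched. Per, a core component of the circadian clock, had 2 worker-private and 0 drone-private sites, and 1 shared site higher in drones, at percentiles 78.4 and 84.2 in workers and 89.7 and 89.1 in drones. Cry2 had no private site. Of 5 DNA methylation genes, 2 were matched, Dnmt1a with no peak and Dnmt3, the de novo methyltransferase, with no private site. At a shared site in Dnmt3 (chr2:15818977-15819397), percentiles were 13.9 and 14.7 in workers and 45.4 and 43.1 in drones (limma adjusted p = 0.197).

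Markers of the cell types that a brain dissection can hold were read as peaks in or near the genes. The 4 matched neuronal genes of 8 (brp, Syt1, Para and Cac) all had peaks in every list, 68 and 79 in workers and 69 and 66 in drones, with 7 worker-private and 5 drone-private sites. The 1 matched glial gene of 4, Eaat-2, had 2 peaks in each list. The 9 royal jelly protein genes listed for the hypopharyngeal gland, Mrjp1 to Mrjp9, had 7 and 5 peaks in workers against 2 and 2 in drones. They had 2 worker-private and 0 drone-private sites, and 3 of the 9 had no peak in any list. In drones, these peaks lay at Mrjp8 alone, and Mrjp8 also held 3 and 4 of the peaks in workers. The 4 matched photoreceptor genes of 13 had 2 and 3 peaks in workers and 3 and 3 in drones, with 1 drone-private site at the ultraviolet opsin gene Uvop. At Blop, a shared site was higher in workers, at percentiles 94.6 and 88.2 against 75.4 and 74.5 in drones (limma adjusted p = 0.2745). The neighbouring genes Lop1 and Lop2 shared 1 peak, in worker replicate 2 alone. The 5 fat body genes had 3 and 4 peaks in workers and 4 and 4 in drones, and the 2 matched muscle genes of 7 had 7 and 10 peaks in workers and 8 and 7 in drones. Whether traces of gland or optic tissue had a part in the private sites was not tested.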

How the data were processed

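ATAC-seq peak lists of 2 worker and 2 drone brain libraries were compared, and 2 queen lists were used for reference. The authors aligned reads with BWA (0.7.17 per the submitters' processing notes) to Amel_HAv3.1, kept fragments of up to 100 bp and called peaks per library with MACS2. The deposited lists give a fold enrichment (a ratio of pileup to local background), the −log10 of the p-value and q-value, and an integer score derived by the authors' caller. The lists end at a q-value of 0.01. Whether duplicates were removed is not given in the sources used here. No reads were used, so depth enters only through the pileups: fold and −log10 p were solved for the summit pileup, which was a whole number (within 0.05) for 100% of peaks.

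Sites were classed by calls in Python 3.11.15 (pandas 2.3.3, scipy 1.17.1). Ranks of fold at shared sites were turned into normal scores and tested with limma 3.58.1 (R 4.3.3) with Benjamini-Hochberg adjustment at 0.05; chromosome shares were tested as log2 values. The steps were tested on simulated data. Alternatives were equal list length (31921 peaks), −log10 q of at least 5, summits within 100 bp, ranks of −log10 q, quantile-normalised log2 fold, a replicate block and leaving out each library; added after seeing the data were a variance trend, ranks of summit pileup, equal-length queen lists and private sites with no other call within 500 bp.

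Genes came from a RefSeq table of the same assembly without strand or exons, so exonic, intronic and untranslated positions were not analysed here, nor were sequences. Its LG names were matched to the lists by summit density at gene ends (at least 3.56-fold for the pairing used, at most 1.37-fold for any other). Sites named were the 8 shared sites per direction with the largest score difference (without calls, from those not overlapping), the 6 private sites per phenotype with the best mean percentile, the 5 genes per direction with the largest private surplus, and members of gene lists. The members, lists and rules were chosen with earlier results of these data known.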

Additional observations from a re-analysis of the deposited data

How the results depend on the processing

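Leaving out 1 library gave 5524 to 10377 worker-private and 4503 to 8751 drone-private sites, and 8004 to 9657 and 6229 to 8536 shared sites not overlapping (worker higher and drone higher). Shared sites called by limma numbered 0 in each direction in the other fits run, 69 and 34 with a variance trend and 166 and 155 on quantile-normalised log2 fold enrichment. In lists of equal length, chromosomes called higher in workers numbered 1 and those called higher in drones numbered 2. No label says that worker and drone libraries of equal replicate number belong together, and the correlation of their deviations was -0.0129. With 2 replicates per phenotype, this value cannot show whether equal numbers mark a shared batch or day. With the replicate block, 4 and 4 chromosomes were called and 0 shared sites, with 3066 unadjusted. Queen lists called on average 39.8% of worker-private and 14.3% of drone-private sites, 46.1% and 20.7% in lists of equal length, and 44.1% and 18.6% with the queen lists reduced too. The shared site at LG2 11822954 changed sign, with a difference of -1.97 percentile points by rank of summit pileup against 73.0 by rank of fold. Of the other single values recomputed, 203 stayed within their limits, 48 moved and 18 chromosome calls were lost. Having 2 libraries per phenotype and calls near the detection limit, at 6 or 7 fragments, limit all counts of private sites.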

Other observations

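Outside the 16 chromosomes, 52 worker-private, 58 drone-private and 304 shared sites lay on sequences with no placement, and 17 of the shared sites were mitochondrial. No private site of either phenotype was mitochondrial. Sites missing from a lone list were most often missing from the shortest: 2934 sites were called in all lists but drone replicate 2, against 1970 in all but worker replicate 1, 1364 in all but worker replicate 2 and 995 in all but drone replicate 1.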
